A study of Mus musculus with 6 samples.

Results

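The genes described here are 10 genes of the unfolded protein response of the endoplasmic reticulum (ER), namely Creb3l1, Atf4, Atf6, Xbp1, Hspa5, Ddit3, Trib3, Asns, Eif2ak3 and Chac1. They were found by gene symbol among the 55421 gene identifiers of the count table, where the 10 symbols matched 11 identifiers, Ddit3 having a second one with at most 0.438% of the counts of the first. RNA-seq was performed on day 4 of differentiation in C2C12 cells, a mouse myoblast line, with 3 libraries per group. Cells of both groups were stable DM1 myoblasts, which carried a GFP transcript with 200 CUG repeats (pCDNA3-GFP-(CUG)200) as a model of myotonic dystrophy type 1. The control line also carried the empty pLL4.0 vector, and the other line overexpressed miR-322/-503 from pLL4.0. Since each group was a single stable line, a difference between the lines and an effect of miR-322/-503 cannot be told apart. The study describes biological as well as technical replicates for its assays in general, but the labels do not say whether the libraries of a group came from separate cultures, so that p-values measure the spread between these libraries, which may be partly technical.

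The unfolded protein response is the program by which a cell adjusts its ER to the load of proteins to be folded. Its 3 sensors in the ER membrane are PERK (encoded by Eif2ak3), IRE1 (Ern1) and ATF6. PERK phosphorylates eIF2alpha, which lowers translation in general but favors that of ATF4, and ATF4 in turn activates genes of amino acid supply and, under lasting stress, of cell death. IRE1 splices the Xbp1 mRNA into the form that encodes an active transcription factor, while ATF6 is cut by proteases in the Golgi to release its active part. In muscle, several of these factors are known to take part in myoblast differentiation. A gene table shows neither splicing of Xbp1, nor phosphorylation, nor cleavage, nor protein.

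Libraries held between 73532084 and 92157388 estimated counts. All 10 myoblast and myotube markers were detected, with a summed level of 3519 to 3878 TPM (transcripts scaled to a fixed total, after correction for length) in the control and 4318 to 4501 TPM in the miR-322/-503 group. Of these markers, 6 rose (Tnnt3, Ckm, Des, Mymx, Myod1 and Myf5, with log2 fold changes, miR-322/-503 minus control, of 1.04, 0.87, 0.65, 0.37, 0.37 and 0.35), Myog fell (-0.74, adjusted p = 0.000665), and Mymk (-0.41), Acta1 (0.09) and Myh3 (-0.05) did not pass the test. The 4 fibroblast markers summed to 427 to 447 TPM in the control and 335 to 361 TPM with miR-322/-503, nearly all of it Dcn. Of the other markers, Ptprc, Cd3e, Hbb-bs, Pecam1, Adipoq, Epcam and Sox10 lay at or near 0, while Cd68 lay between 3.09 and 6.30 TPM. Tek, an endothelial marker, went from 0.410 to 0.524 TPM in the control to 1.52 to 2.18 TPM, and the neural marker Gfap from 0.481 to 0.778 TPM to 0.0775 to 0.0916 TPM. The overexpressed microRNAs are shown because their seeds (bases 2 to 8, in capitals) are compared with the 10 genes further on. The sequences are those of RefSeq on GRCm38.p6, on the minus strand at chrX:53054306-53054327 for miR-322-5p and chrX:53054027-53054049 for miR-503-5p.
mmu-miR-322-5p: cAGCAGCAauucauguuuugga
mmu-miR-503-5p: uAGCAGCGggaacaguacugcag
The seeds differ in their last base.

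With miR-322/-503, 6 of the 10 genes fell, namely Creb3l1, Hspa5, Xbp1, Eif2ak3, Atf4 and Asns, and none rose. Atf6, Ddit3, Trib3 and Chac1 did not pass the test. A gene is said to have risen or fallen where the adjusted p of edgeR's quasi-likelihood test was under 0.05. Over all 18140 genes tested, 15.5% fell and 13.2% rose. The median log2 fold change (miR-322/-503 minus control) was -0.28 over the 10 genes and -0.01 over all genes tested. None of the 10 genes passed the study's further limit of a log2 fold change beyond 1 in either direction, which 9.87% of the genes tested did. The values of the groups did not overlap for the 6 genes that fell and overlapped for the other 4, while they did not overlap for 45.1% of all genes tested. Without miR-322/-503 replicate 3, only 3 of the 6 genes passed the test, Xbp1, Atf4 and Asns being lost. In bulk RNA, fewer cells that express a gene and less of its RNA per cell cannot be told apart.

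**Figure D1:**
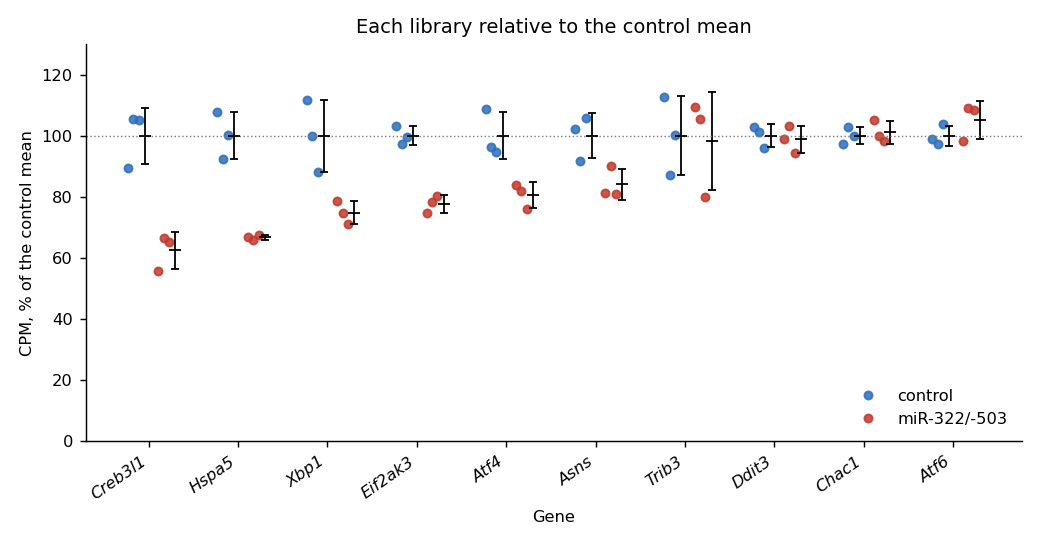
Normalized counts (CPM) of each library, as a percentage of the control mean, for the 10 genes ordered by fold change. Points are libraries, and black marks are the mean and SD of 3 libraries. The miR-322/-503 libraries lie below all control libraries for the 6 genes from Creb3l1 to Asns and overlap them for the other 4.

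The chaperone Hspa5 (BiP), which binds unfolded proteins and holds the 3 sensors inactive, had by far the highest level of the 10 genes, in CPM and in TPM. Hspa5 (ENSMUSG00000026864, chr2:34771970-34777547, plus strand) had 1473, 1262 and 1369 CPM (counts scaled to a fixed library size) in the control and 916, 901 and 922 CPM with miR-322/-503. The control libraries were all higher, and the miR-322/-503 libraries lay close together. The mean went from 1368 ± 106 to 913 ± 10.9 CPM (SD, n = 3), which was 66.7% of the control, with a log2 fold change of -0.58 (SE 0.065, 95% interval -0.74 to -0.43, adjusted p = 0.000516). The ER stress element (ERSE, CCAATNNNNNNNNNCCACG) is the DNA motif to which ATF6 binds together with NF-Y. Of the 8 genes with a promoter window, Hspa5 was also the only one with an exact match to it. Its window, from 250 bases before to 50 bases after the RefSeq start, is therefore printed with the element in capitals (chr2:34771840-34772139, GRCm38.p6, plus strand).
Hspa5 promoter: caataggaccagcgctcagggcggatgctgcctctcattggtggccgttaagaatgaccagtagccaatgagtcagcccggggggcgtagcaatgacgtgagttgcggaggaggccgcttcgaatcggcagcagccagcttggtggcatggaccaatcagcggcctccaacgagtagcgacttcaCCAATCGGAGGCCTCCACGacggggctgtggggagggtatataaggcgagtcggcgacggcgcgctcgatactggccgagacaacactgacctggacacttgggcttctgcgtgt
The element began 65 bases before the start.

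Creb3l1 (OASIS) encodes a transcription factor of the ER membrane that is cut like ATF6 and is known for its role in collagen production. It showed the largest fall of the 10 genes. Creb3l1 (ENSMUSG00000027230, chr2:91982328-92024502, minus strand) had 319, 377 and 375 CPM in the control and 199, 238 and 233 CPM with miR-322/-503. Replicate 1 was the lowest library in each group, and the groups lay far apart. The mean of 357 ± 32.8 CPM fell to 223 ± 21.4 CPM, which was 62.4% of the control, with a log2 fold change of -0.68 (SE 0.10, 95% interval -0.91 to -0.45, adjusted p = 0.00179).

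Eif2ak3, which encodes the sensor PERK, had the lowest level of the 10 genes per length, in TPM, with a small spread between replicates. It was measured at 65.5, 61.6 and 63.1 CPM in the control and at 47.3, 49.6 and 50.8 CPM with miR-322/-503 (ENSMUSG00000031668, chr6:70844515-70905245, plus strand). The groups were well apart. The log2 fold change was -0.36 (SE 0.057, 95% interval -0.50 to -0.23, adjusted p = 0.00284), to 77.7% of the control. Gm43292, which lies on the opposite strand within Eif2ak3, held 44 to 90 counts per library against 3720 to 5324 for Eif2ak3. Atf6, the other sensor among the 10 genes, had 233, 230 and 244 CPM in the control and 231, 257 and 255 CPM with miR-322/-503 (ENSMUSG00000026663, chr1:170704674-170867771, minus strand). Its groups overlapped, with a log2 fold change of 0.07 (95% interval -0.08 to 0.23, adjusted p = 0.466).

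Xbp1 and Atf4 encode the transcription factors that act after IRE1 and PERK. Xbp1 (ENSMUSG00000020484, chr11:5520659-5525893, plus strand) had 112, 100 and 88.2 CPM in the control and 78.8, 74.6 and 71.2 CPM with miR-322/-503. All libraries with miR-322/-503 were lower, although the lowest control library came near to them. The log2 fold change was -0.42 (SE 0.092, 95% interval -0.63 to -0.20, adjusted p = 0.0128), to 74.9% of the control. Atf4 (ENSMUSG00000042406, chr15:80255184-80257541, plus strand) had 325, 288 and 283 CPM in the control and 251, 245 and 227 CPM with miR-322/-503. The highest control library stood somewhat above the other two. Its log2 fold change was -0.31 (SE 0.076, 95% interval -0.49 to -0.13, adjusted p = 0.0196), to 80.6% of the control. Without miR-322/-503 replicate 3 neither gene passed the test, with an adjusted p of 0.0503 for Xbp1 and 0.0704 for Atf4.

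The remaining 4 genes are known targets of ATF4 or of the CHOP protein it induces, and of these Asns alone passed the test. Asns, which encodes asparagine synthetase, had 142, 128 and 148 CPM in the control and 113, 125 and 113 CPM with miR-322/-503 (ENSMUSG00000029752, chr6:7675169-7693254, minus strand). The nearest libraries of the groups differed by little. The log2 fold change was -0.25 (SE 0.076, 95% interval -0.43 to -0.07, adjusted p = 0.0435), to 84.1% of the control, and passed the threshold in 5 of 16 other settings, with an adjusted p between 0.0292 and 0.173.

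Ddit3, which encodes the cell death regulator CHOP, had 40.7, 40.0 and 37.9 CPM in the control and 39.2, 40.8 and 37.3 CPM with miR-322/-503 (ENSMUSG00000025408, chr10:127290774-127296288, plus strand). The groups overlapped almost wholly, with a log2 fold change of -0.02 (95% interval -0.17 to 0.14, adjusted p = 0.889). The 3' end of Ddit3 overlaps Mars on the opposite strand, which held 6938 to 9236 counts per library against 2804 to 3732, and the sources used here do not state whether counting used strand. Chac1 degrades glutathione, and its gene (ENSMUSG00000027313, chr2:119351229-119354381, plus strand) had 47.8, 50.5 and 49.1 CPM in the control and 51.7, 49.0 and 48.3 CPM with miR-322/-503. Here too the libraries were mixed (log2 fold change 0.02, 95% interval -0.12 to 0.15, adjusted p = 0.881). Trib3 encodes a pseudokinase that restrains ATF4 and AKT, and it varied most between replicates, with 42.2, 32.6 and 37.6 CPM in the control and 41.0, 39.6 and 29.9 CPM with miR-322/-503 (ENSMUSG00000032715, chr2:152337422-152344032, minus strand). Its log2 fold change was -0.02 with a wide 95% interval of -0.36 to 0.31 (adjusted p = 0.925).

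**Figure D2:**
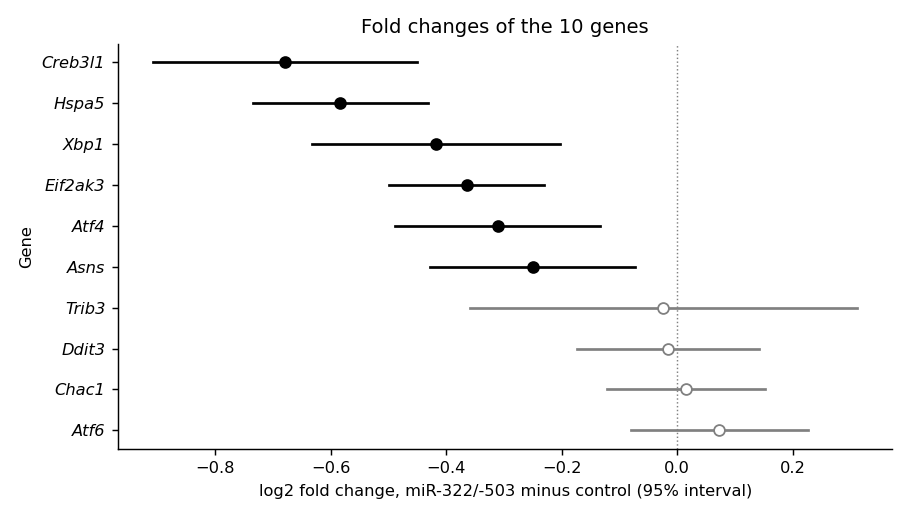
Log2 fold changes (miR-322/-503 minus control) of the 10 genes, with the 95% interval of edgeR's quasi-likelihood fit as a line. Filled points have an adjusted p under 0.05. Intervals of 6 genes lie wholly below 0, and those of Trib3, Ddit3, Chac1 and Atf6 cross it.

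Asns, Chac1 and Trib3 each held the core of the C/EBP-ATF response element (TGATGNAA), to which ATF4 binds with a partner. The core was found in 3 of the 8 genes with a promoter window (37.5%), against 2.9% of the 11519 tested genes with a window and 4.51% of all 27025 windows. These windows are printed with the core in capitals, which stands on the other strand in Chac1 and Trib3 and so reads as its reverse complement.
Asns promoter (chr6:7693160-7693459, minus strand): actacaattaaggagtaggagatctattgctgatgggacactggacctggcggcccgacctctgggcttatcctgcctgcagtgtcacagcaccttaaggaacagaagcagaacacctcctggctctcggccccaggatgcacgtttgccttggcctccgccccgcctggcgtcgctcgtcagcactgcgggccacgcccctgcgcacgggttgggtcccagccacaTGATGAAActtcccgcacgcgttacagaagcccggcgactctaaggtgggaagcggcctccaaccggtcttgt
Chac1 promoter (chr2:119350992-119351291, plus strand): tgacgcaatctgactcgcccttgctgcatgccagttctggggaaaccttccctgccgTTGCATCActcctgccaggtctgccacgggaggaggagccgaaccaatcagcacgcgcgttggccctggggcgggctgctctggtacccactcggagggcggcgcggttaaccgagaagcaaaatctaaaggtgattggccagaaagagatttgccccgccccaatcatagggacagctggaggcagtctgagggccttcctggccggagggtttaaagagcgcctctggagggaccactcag
Trib3 promoter (chr2:152344011-152344310, minus strand): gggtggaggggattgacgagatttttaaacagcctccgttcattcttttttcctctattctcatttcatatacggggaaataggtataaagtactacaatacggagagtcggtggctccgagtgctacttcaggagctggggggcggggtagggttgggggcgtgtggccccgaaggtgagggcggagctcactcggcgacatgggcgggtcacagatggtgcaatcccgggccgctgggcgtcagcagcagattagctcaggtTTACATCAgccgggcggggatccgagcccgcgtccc
Of these genes, Asns was called lower, while Chac1 and Trib3 were not called. The ERSE of Hspa5 was found in 0.191% of the tested genes with a window. The UPR element (TGACGTGG) and the second ER stress element (ERSE-II, which is ATTGG, any base, and then CCACG) were in none of the 8 windows, and they were in 0.99% and 0.0868% of those of tested genes. All motifs were searched on both strands, the ERSE begins with a CCAAT box (CCAAT), and Creb3l1 and Atf6 had no window. Only exact matches were counted, so elements with a differing base were missed.

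Levels were compared between genes in TPM, which accounts for length. The order was the same in both groups, with Hspa5 first (989 TPM in the control and 647 with miR-322/-503), then Atf4 (325 and 260), Creb3l1 (261 and 161), Asns (134 and 113), Xbp1 (110 and 86.6), Ddit3 (85.2 and 83.1), Atf6 (61.8 and 64.2), Chac1 (57.0 and 56.9), Trib3 (37.2 and 36.2) and Eif2ak3 (27.8 and 21.1). Neighbors in this order did not overlap between libraries, except for Xbp1 and Ddit3 with miR-322/-503.

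**Figure D3:**
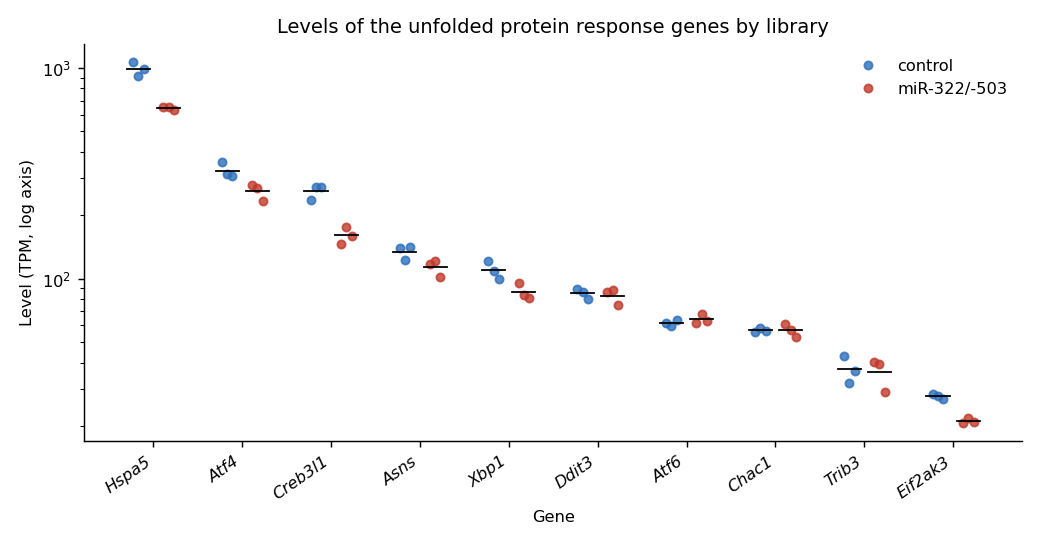
Levels of the 10 genes in TPM on a log axis, with each library as a point and the mean of 3 libraries as a line. Hspa5 is highest and Eif2ak3 lowest in each group.

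The other genes of the response were examined in 8 lists with 139 genes, of which 138 were tested, 48 fell (34.8%) and 6 rose (4.35%), against 15.5% and 13.2% of all genes tested. The median log2 fold change was -0.16. Of the 8 lists, falls were most frequent among ER chaperones and foldases, where 17 of 25 fell and none rose, with a median of -0.44. Calr (calreticulin, a calcium-binding chaperone of glycoproteins) fell from 2584 ± 85.3 to 1267 ± 71.0 CPM (log2 fold change -1.03, adjusted p = 1.97e-05). The disulfide isomerase Pdia5 (-1.11), the prolyl isomerase Fkbp11 (-1.10) and Sdf2l1 (-0.95), a partner of BiP co-chaperones, also fell in log2 fold change. Dnajc3, a co-chaperone of BiP that inhibits PERK, fell from 190 to 128 CPM (-0.57, adjusted p = 0.000244). Hsp90b1 (GRP94) fell less (-0.34, adjusted p = 0.0156), as did Dnajb9 (-0.45, adjusted p = 0.0364), whose call was lost in 6 of 16 other settings. Canx (calnexin) was among the 8 genes that did not pass, with a log2 fold change of -0.02.

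Some of these genes lie in regions where neighboring genes were also lower. Calr, Herpud1 and Dnajb1 lie within a block of chromosome 8 (chr8:77659691-95888547) where the log2 fold change had a median of -0.72 over 215 tested genes, and Hyou1, Manf, Ppib, Nck1 and Clpx lie on chromosome 9, with a median of -0.27 over 1014 genes. Without both regions, 13 of 21 ER chaperones and foldases fell, with a median of -0.33. Of the genes of the 8 lists, 41 fell without the regions and 48 with them. Of all genes tested, 2354 fell without the regions and 2817 with them, and the 15.5% given above includes the regions. None of the 10 genes lies in these regions. The medians of their own chromosomes were between -0.04 and 0.03, and those of the 24 tested genes nearest to each of the 6 genes that fell were between -0.11 and 0.17. The fibroblast markers Lum, Dcn and Pdgfra moved in the same direction as the chaperones, with log2 fold changes of -3.19, -0.22 and -0.74, and their part in the result was not tested.

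Of the genes of the translocon and of COPII vesicles, 9 of 20 fell (45%, against 15.5% of all genes tested) and none rose (median -0.28). Among them were Sec24d (258 to 175 CPM, -0.56), Sec23a (-0.41), Sec61b (-0.59) and Sec61g (-0.60), which form parts of the vesicle coat or of the translocon. Of ER-associated degradation, 4 of 18 genes fell (22.2%, against 15.5% of all genes tested) and none rose (median -0.05). Among these were Herpud1 (251 ± 18.4 to 127 ± 3.63 CPM, -0.99, adjusted p = 5.47e-05), the ubiquitin ligase gene Syvn1 (-0.39) and Selenos (-0.44). Herpud1 lies in the chromosome 8 block, and without the genes of that block 2 of 16 fell.

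Sensors and their relatives moved in both directions, with 3 of 10 lower and 2 higher (median -0.10), while 15.5% of all genes tested fell and 13.2% rose. Ern1, which encodes the sensor IRE1, rose from 50.3 to 59.6 CPM (0.24, adjusted p = 0.0200), although this was past the threshold in only 10 of 16 other settings. Wfs1, an ER membrane protein that restrains ATF6, rose from 63.1 to 114 CPM (0.86, adjusted p = 0.000109). Creb3l2 (-0.19, adjusted p = 0.0396) and Creb3 (-0.33, adjusted p = 0.0246), relatives of Creb3l1, fell, as did the scarce Creb3l3 (1.74 to 0.331 CPM). The calls of Creb3l2 and Creb3 held in 4 and 11 of 16 other settings. Atf6b (-0.17, adjusted p = 0.258) and the protease gene Mbtps1 (0.01, adjusted p = 0.906) did not pass.

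In the branch after PERK, the stress targets of ATF4 and CHOP moved in both directions, and the other lists held falls without rises. Of the eIF2alpha kinases, phosphatase and exchange factor, 3 of 12 genes fell (25%, against 15.5% of all genes tested), which were Nck1 (-0.49) and the phosphatase subunits Ppp1r15a (-0.43, adjusted p = 0.0143) and Ppp1r15b (-0.21, adjusted p = 0.0179). Their calls held in 11, 13 and 9 of 16 other settings, and without chromosome 9, where Nck1 lies, 2 of 11 genes fell. Of 19 stress targets of ATF4 and CHOP, 4 rose and 4 fell (21.1% each, against 13.2% and 15.5% of all genes tested), with a median of 0.11. Pmaip1 (NOXA, which promotes apoptosis) rose from 3.14 ± 0.377 to 22.0 ± 10.5 CPM with a wide spread between libraries (2.81, adjusted p = 0.00107), and Atf3 rose from 3.46 to 5.44 CPM (0.65, adjusted p = 0.0211). Nupr1 (-0.68) and the death receptor gene Tnfrsf10b (-0.69) fell. Among amino acid genes, 5 of 21 fell (23.8%) and none rose (median -0.12), Pycr1 of proline synthesis the most (43.7 to 22.9 CPM, -0.93, adjusted p = 0.000642), followed by Slc1a4 (-0.62), Cth (-0.52, held in 11 of 16 other settings) and Aldh18a1 (-0.46). Of the tRNA synthetases, 3 of 13 fell (23.1%) and none rose (median -0.15), namely Tars (-0.41), Yars (-0.29) and Eprs (-0.25), whose calls held in 16, 10 and 13 of 16 other settings.

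For comparison, 4 of 14 genes of the cytosolic heat shock response rose (28.6%) and 1 fell (7.14%), against 13.2% and 15.5% of all genes tested (median 0.03). Hsp90aa1 (0.31), Hspa4 (0.30) and Hspa4l (0.43) were among those that rose, and Dnajb1 (-1.08) of the chromosome 8 block was the one that fell. Of 8 mitochondrial chaperones and proteases, 1 fell (12.5%, against 15.5% of all genes tested) and none rose (median 0.06). This was Clpx on chromosome 9 (-0.27, adjusted p = 0.0330), whose call held in 6 of 16 other settings.

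**Figure D4:**
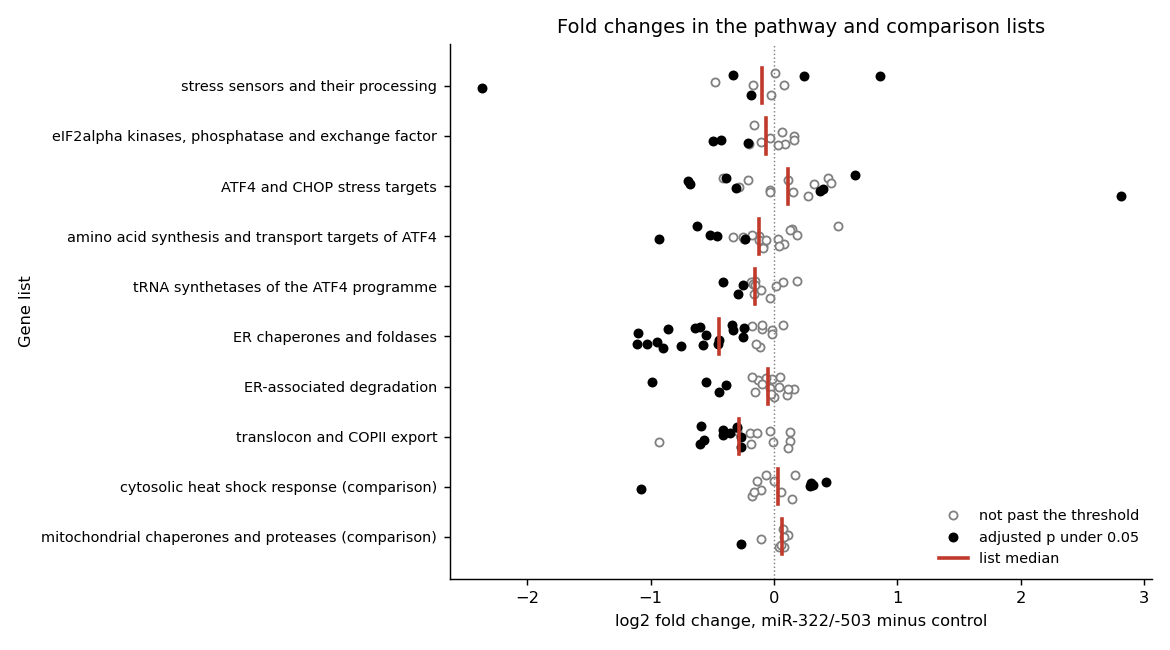
Log2 fold changes (miR-322/-503 minus control) of every tested gene in 8 pathway and 2 comparison lists. Filled points have an adjusted p under 0.05, and red lines are list medians, which reach from -0.44 for ER chaperones and foldases to 0.11 for the stress targets of ATF4 and CHOP.

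The ERSE was found, besides Hspa5, in Calr, Canx, Creld2, Dnajc3, Hsp90b1 and Pdia6 of the chaperone list (6 of 20 with a window, 30.0%). Over all tested genes with a window, 22 held the element, of which 12 fell (54.5%) and 1 rose (4.55%), with a median log2 fold change of -0.36. This compares with 18.2% that fell and 15.2% that rose among all 11519, with a median of -0.01. Of the 22 genes, 9 belonged to the 10 genes or the lists and 7 of those fell, while 5 of the other 13 fell. Of those 5, Spats2l (0.883 to 0.129 CPM) and Xlr3c (0.199 to 0 CPM) lay under 1 CPM in both groups. Of the genes that fell, Calr lies in the chromosome 8 block, and Xlr3a and Xlr3c are near-identical copies between which reads may have been split. Among the 334 genes with the C/EBP-ATF core, 19.5% fell and 18.6% rose (median -0.02). The UPR element was in 114 genes, of which 21.9% fell and 13.2% rose, and the ERSE-II in 10, of which 4 fell and none rose. These shares are a description, made after the values of the 10 genes were known.

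Matches to the microRNA seeds were sought in the longest annotated 3'UTR of each gene (GENCODE M21). None of the 6 genes that fell held a match to miR-322-5p (TGCTGCT) or miR-503-5p (CGCTGCT). Their 3'UTRs reached from 84 bases in Atf4 and 149 in Asns to 1437 in Hspa5, and a short one leaves little room for a match. Atf6 and Chac1, which were not called, did, as 2 of the 10 genes with a miR-322-5p match (against 24.4% of 13429 tested genes) and 1 with a miR-503-5p match (against 4.86%). The matches are shown with the heptamer in capitals, at positions 49, 4007 and 129 of 5208 bases in Atf6 and 316 of 794 bases in Chac1.
Atf6, miR-322-5p, position 49: ctggtgaagaTGCTGCTctctg
Atf6, miR-322-5p, position 4007: ttttttttttTGCTGCTaatat
Atf6, miR-503-5p, position 129: acaggaagtgCGCTGCTtgtca
Chac1, miR-322-5p, position 316: atccccccatTGCTGCTgccaa
A match of letters is not a measured site.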

How the data were processed

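RNA-seq covered 3 control and 3 miR-322/-503 libraries of DM1 myoblasts on differentiation day 4. Per the submitters' processing notes, Trim Galore, HISAT2, StringTie and the GRCm38 build were used. The authors deposited a table of whole-number estimated counts per gene without normalization, and per library the coverage (signal per base), FPKM and TPM of each gene. Coverage was not analysed. Counts were tested as deposited with edgeR 4.0.16 in R 4.3.3 (TMM normalization, quasi-likelihood test, Benjamini-Hochberg adjustment over the 18140 genes that filterByExpr kept). The SE is the log2 fold change divided by the square root of F. CPM are TMM-normalized. Levels between genes are the TPM of the authors, with FPKM as an alternative. DESeq2 1.42.0 and limma 3.58.1 served as alternatives. The computations were tested on simulated data. The 10 genes and the gene lists were chosen with earlier results of these data known. Named genes are the 10 genes, 10 further chosen genes and, per list, up to 4 called genes with the largest fold change whose groups did not overlap and whose higher mean reached 1 CPM. Genes named beyond these, for their region, their promoter element or as not called, were picked after their values were seen. A gene that the rule names is not reported here. The chromosome 8 block was found as the longest stretch in which windows of 25 genes had a median lying 0.4 or more below that of the autosomes, and was defined after the data were seen. Promoter windows and microRNAs are from RefSeq (GRCm38.p6).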

Additional observations from a re-analysis of the deposited data

How the results depend on the processing

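Over 16 other settings, Creb3l1, Hspa5 and Eif2ak3 passed the threshold in all, Xbp1 and Atf4 in 14 and Asns in 5. Of the other named genes, Creb3l2 passed in 4, Clpx in 6, Ppp1r15b in 9, Dnajb9, Ern1 and Yars in 10, Creb3, Cth and Nck1 in 11, Hsp90b1 in 12, Ppp1r15a, Eprs and Hspa4l in 13 and Atf3 in 14. With limma on log2(TPM + 1) without a filter, 3 of the 10 genes were lower (adjusted p = 0.0760 for Xbp1 and 0.0887 for Atf4), 3 genes of the pathway lists were higher, and 1571 of all genes were higher. With the further limit of a log2 fold change beyond 1, 0 of the 10 genes were lower, 1 pathway gene was higher and 4 were lower, 3 of the ER chaperones and foldases were lower, and 832 of all genes were higher and 959 lower. When each library was left out in turn, 3 to 6 of the 10 genes were lower and 0 higher, 36 to 46 pathway genes were lower and 3 to 6 higher, 14 to 16 ER chaperones were lower, and 2217 to 2491 of all genes were lower and 1792 to 2056 higher. Pathway genes that were higher numbered 3 without miR-322/-503 replicate 2.

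With each library left out in turn, the log2 fold change lay between -0.0481 and 0.0168 for Ddit3, -0.117 and 0.106 for Trib3, -0.0109 and 0.0359 for Chac1 and -0.00598 and 0.0383 for Mbtps1. Signs turned only near 0, in genes that were not called. Ddit3 had 0.00145 with upper quartile normalization, 0.00403 without control replicate 1 and 0.0168 without miR-322/-503 replicate 3. Trib3 had 0.0683 and 0.106 without those libraries. Chac1 had -0.00367, -0.00376 and -0.00367 with limma on log2(TPM + 1), on log2(TPM + 0.1) and without a filter, -0.00517 without control replicate 1 and -0.0109 without miR-322/-503 replicate 1. Mbtps1 had -0.0366, -0.0372 and -0.0366 in the limma settings, -0.00598 without control replicate 3 and -0.00378 without miR-322/-503 replicate 3. The cause was not tested.

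Replicate numbers were not taken as pairs in the main test. Deviations of same-numbered libraries correlated at 0.264, 0.156 and 0.0994, and every library correlated best with its own number. Whether same-numbered libraries shared a batch was not tested. With the replicate block, 5 of the 10 genes were lower (Asns had an adjusted p of 0.0745; Clpx was lost too), 55 pathway genes were lower and 8 higher, 17 ER chaperones were lower, and 3066 of all genes were lower and 2667 higher. Leaving out chromosome 9 and the chromosome 8 block was added after seeing the data. With 3 libraries per group, a fold change of Trib3 between -0.36 and 0.31 could not be told from 0.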
